A study of Homo sapiens with 13 samples.

Results

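The genes described here are the numbered small nucleolar RNA host genes (*SNHG1*, *SNHG3* and so on), 3 further host genes with other names (*GAS5*, *ZFAS1* and *EPB41L4A-AS1*), and *MALAT1* and *NEAT1*, a pair of nuclear long noncoding RNAs often read beside them. They were matched by symbol alone, from a list drawn up with earlier results of these data known. Of the 56831 genes listed for each small cell lung cancer line, 19 matched, 14 of them numbered SNHG genes and 5 chosen by name. *DANCR*, 1 of the 6 names sought, was not analysed here. A host gene carries small nucleolar RNAs (snoRNAs) in its introns. After splicing, the intron is trimmed to the snoRNA, which joins a protein particle and guides the chemical modification or cleavage of ribosomal RNA, while the joined exons are in many cases unstable, because ribosomes read them and nonsense-mediated decay then removes them. Host transcripts often start with a C followed by a run of pyrimidines, as ribosomal protein mRNAs do. *MALAT1* and *NEAT1* carry no snoRNA. Their RNA stays in the nucleus, *MALAT1* in nuclear speckles and *NEAT1* as the scaffold of paraspeckles.

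Total RNA was sequenced from H82, an established line of the NEUROD1 subtype (SCLC-N), and from H146, an established line of the SCLC-A subtype, each a single cell line labelled wild type and grown in RPMI1640 with 10% FBS. Treated cells received FHD-286, an inhibitor of the chromatin remodeling ATPases SMARCA4 and SMARCA2, at 100 nM for 14 days with fresh drug every 48 h, and untreated cells received none. H82 had 3 untreated and 3 treated libraries, and H146 had 3 untreated and 4 treated libraries. Each line was compared only with itself, to ask how the RNA of these genes differed after SMARCA2/4 inhibition.

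The values are the authors' TPM, reads per gene length scaled to the same sum in each library. They carry no read depth, so no counting interval or detection limit is given, and the spread between libraries sets the precision. Treated H82 had fewer genes at 1 TPM or more (15554 to 16633) than untreated H82 (21227 to 21772), while H146 had 18778 to 19309 treated and 17476 to 17965 untreated. Mitochondrial genes made up 22.1% to 24.1% of the TPM in untreated and 12.3% to 14.9% in treated H82, and 7.56% to 8.86% and 3.82% to 11.4% in H146. A set of 6 RNA genes without a poly(A) tail summed to 1951 to 2515 TPM untreated and 1084 to 1640 TPM treated in H82. Of 5 tested, 3 were lower, against 45.5% of all genes, and 0 when the libraries were scaled by the median of ratios. The part of the mitochondrial share and of these RNA genes in the H82 differences of *MALAT1*, *NEAT1* and the snoRNA genes was not tested. The summed TPM of 5 neuroendocrine markers was 610 to 660 in untreated and 178 to 577 in treated H82, and 1377 to 1679 and 983 to 1244 in H146, where NEUROD1 was at or under 0.521 TPM. The sum of 4 epithelial markers was 1.39 to 3.16 TPM in untreated and 8.98 to 98.6 in treated H82, highest in treated replicate 2, and 1876 to 1924 and 823 to 999 in H146. Fibroblast markers (5 genes) summed to at most 2.502 TPM untreated and 33.3 treated in H82, and 8.64 and 19.6 in H146. Leukocyte markers (5 genes) summed to at most 7.90 TPM in H82 and 20.2 in H146, with CD3E at 0 in every H82 library. By the test used below, 3 neuroendocrine markers were lower and 1 higher of 5 tested in H82 and 1 lower of 4 in H146. Of the epithelial markers 3 of 4 were higher in H82 and 4 of 4 lower in H146. Fibroblast markers were higher for 3 of 3 tested in H82 and 1 of 2 in H146, and of the leukocyte markers 1 of 2 was lower in H82 and 1 of 3 higher in H146. Of all genes 45.5% were lower and 13.1% higher in H82, and 15.5% and 32.5% in H146. The part of these markers in the results was not tested. In bulk RNA, fewer cells of a type and less RNA per cell cannot be told apart. 1 library stood apart in the host genes themselves. In treated replicate 1 of H82 the 17 host genes summed to 4042 TPM, where treated replicates 2 and 3 had 981 and 962 and untreated H82 had 1512 to 1569, and the H82 results that rest on it are given with and without it.

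The sequences at the start of the transcripts show the pyrimidine run that many host genes share with ribosomal protein genes. RefSeq promoter entries (GRCh38.p14) were found for 15 of the 19 genes, and each window below runs 5′ to 3′ on the strand of the gene from 8 bases before the annotated start through its first 22 bases. Capitals mark a run of at least 5 C or T that begins with C within 5 bases of the start, read on the strand of the gene only. SNHG12, ZFAS1, SNHG5, SNHG7 and SNHG4 have such a run, and *GAS5* and *SNHG1*, which fell in H146 as *SNHG12*, *SNHG5* and *SNHG7* did, do not have one at the start RefSeq gives.
SNHG12: ttcagcgCCCTTTCTCCCCgccgcattccc
SNHG4: cccggctgCCCTTTCCCCTCCggcctctgc
SNHG5: acttcggtCTTTTacgtcggccttcgcgag
SNHG7: ttctcgtCCTCTgcgtgcgccggaggctgc
ZFAS1: cattcgttCTTTCgcgtctgcggtgcccgg
SNHG1: gattcgttctcatttttctactgctcgtgg
GAS5: atgaattcagatgtgtttattttggagcct
The windows lie at chr1:28581852-28581881 (minus strand) for *SNHG12*, chr5:139274093-139274122 (plus) for *SNHG4*, chr6:85678712-85678741 (minus) for *SNHG5*, chr9:136728163-136728192 (minus) for *SNHG7*, chr20:49278634-49278663 (plus) for *ZFAS1*, chr11:62855864-62855893 (minus) for *SNHG1* and chr1:173869024-173869053 (minus) for *GAS5*. Each window spans the start that RefSeq gives, and that of *GAS5* lies upstream of the gene as GENCODE 44 draws it. The longest runs, of 12 and 13 bases, are those of *SNHG12* and *SNHG4*.

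A run of this kind was found for 8 of the 15 matched genes, in 8 of their 16 entries, and in 21.1% of all 35116 promoter entries. *SNHG8*, *SNHG16* and 1 of the 2 *MALAT1* entries made up the rest of the 8. The E-box CACGTG, which reads the same on both strands and is bound by MYC among others, was sought between 250 bases before and 50 after the start. It was found for 1 of the 15 matched genes, *SNHG7*, and in 7.26% of all entries. In H146, 4 of the 8 genes with a run and 3 of the 7 without fell, against 15.5% of all genes tested in that line, and in H82 2 of 8 and 2 of 7 did, against 45.5%.

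Untreated H82 held most *MALAT1*, at 731 ± 72.1 TPM (SD, n = 3), followed by *GAS5* at 438 ± 7.68 and *SNHG6* at 178 ± 25.4. *SNHG8*, *SNHG1* and *SNHG3* lay at 141 ± 5.64, 139 ± 6.64 and 121 ± 1.41 TPM, and the lowest of the 19 was *SNHG9*, at 3.66 ± 1.90 TPM. In untreated H146 *SNHG6* came first at 1018 ± 160, then *GAS5* at 573 ± 73.5, *MALAT1* at 407 ± 88.8, *SNHG5* at 394 ± 51.2 and *SNHG1* at 368 ± 50.3 TPM. *NEAT1* was at 42.7 ± 2.81 TPM in H82 and 1.01 ± 0.139 TPM in H146, and *SNHG14* at 14.8 ± 1.95 and 1.39 ± 0.325 TPM. The 2 lines come from separate tables that were not scaled to each other, so these levels are set side by side without a test.

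**Figure D1:**
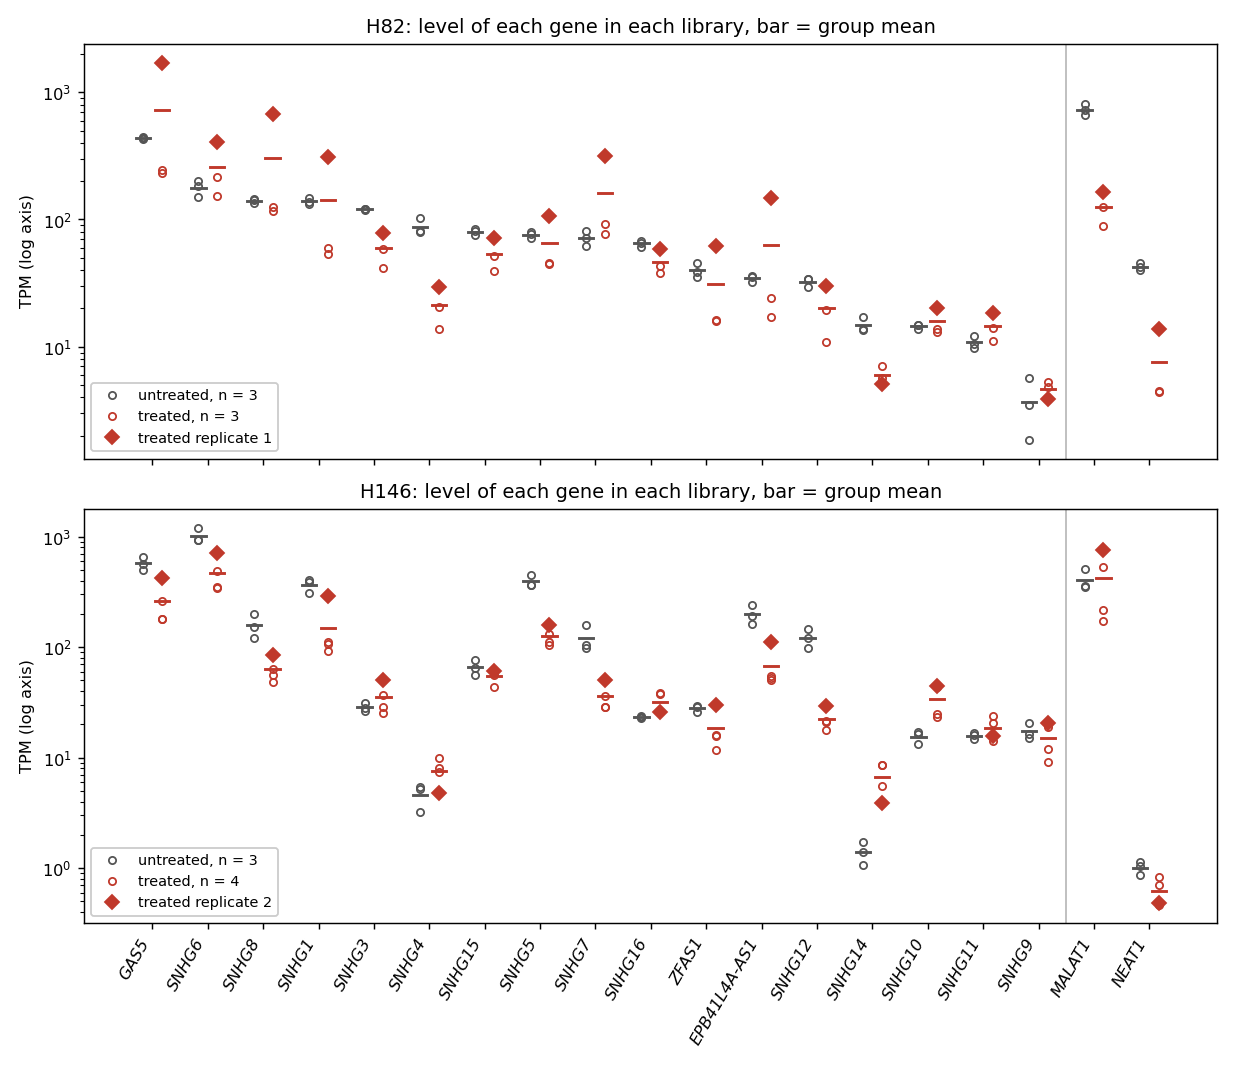
TPM of the 19 genes in each library on a log axis, with H82 above and H146 below. Circles are libraries, bars are group means, and a diamond marks treated replicate 1 of H82 and treated replicate 2 of H146. In H82 the diamond lies far above the other treated libraries for GAS5 (1705 against 246 and 230.4 TPM) and SNHG8, whereas all treated libraries of SNHG4, MALAT1 and NEAT1 lie below all untreated ones.

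In H82, *MALAT1*, *NEAT1* and 4 host genes (*SNHG4*, *SNHG14*, *SNHG3* and *SNHG15*) were lower with FHD-286 and no gene of the 19 was higher (limma on log2(TPM + 1), two-sided, Benjamini-Hochberg adjusted over all genes). All 19 were tested. The 6 lower genes compare with 45.5% of all 19770 tested genes called lower and the 0 higher with 13.1% called higher. At the median, the 19 genes had a log2 fold change of -0.47 and all genes one of -0.56, so a change of 0 in H82 lies above the typical gene. Scaling the libraries by the median of ratios moved the median of all genes to -0.14, and a gene's distance from that median is given below where it matters.

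*MALAT1* (ENSG00000251562.11, chromosome 11, 65497640 to 65508073 in hg38) was at 721, 808 and 665 TPM in the untreated libraries of H82 and at 165, 88.6 and 125 TPM in the treated ones. Every treated library was far below the lowest untreated one. Its log2 fold change was -2.57 (SE 0.24, limma adjusted *p* = 0.000287), or 2.01 below the median of all genes. *NEAT1* (ENSG00000245532.11, chromosome 11, 65422774 to 65445540) was at 45.6, 40.0 and 42.5 TPM without and 13.9, 4.39 and 4.49 TPM with the drug. The groups were again far apart, with replicate 1 the highest of the treated libraries, and the log2 fold change was -2.52 (SE 0.39, limma adjusted *p* = 0.00166). Both stayed lower under the median of ratios (-2.08 and -2.06), and without treated replicate 1 *MALAT1* was at -2.78 and *NEAT1* was again lower (limma adjusted *p* = 6.7e-05). Of 6 genes for nuclear speckle proteins 4 were lower and 0 higher (median -0.73), against 45.5% and 13.1% of all genes (median -0.56). *SON*, a speckle core protein, was at -1.52, and 2 of the 6 were lower under the median of ratios, against 32.9% of all genes. Of 9 paraspeckle protein genes 1 was lower (*PSPC1*, -0.54) and 0 higher (median -0.09), and the median of ratios gave 0 lower and 3 higher.

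*SNHG4* (ENSG00000281398.4, chromosome 5, 139274102 to 139284899), a host of the SNORA74 family, was at 79.1, 102 and 80.9 TPM in untreated and 29.3, 13.8 and 20.7 TPM in treated H82. Its groups did not overlap, and its log2 fold change of -2.04 (SE 0.27, limma adjusted *p* = 0.000883) was the largest fall of a host gene in this line. *SNHG4* overlaps *MATR3* on the same strand, and reads of the 2 cannot be told apart here. *SNHG14* (ENSG00000224078.15, chromosome 15, 24978583 to 25420336), the long imprinted transcript of the Prader-Willi region that runs antisense to *UBE3A* and carries the SNORD116 and SNORD115 clusters, was at 13.9, 17.0 and 13.4 TPM without and 5.06, 5.71 and 7.08 TPM with the drug. All treated libraries were below all untreated ones, with a log2 fold change of -1.18 (SE 0.19, limma adjusted *p* = 0.00191), and *SNRPN* overlaps it on the same strand.

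*SNHG3*, which carries the U17 snoRNAs SNORA73A and SNORA73B and overlaps *RCC1*, was at 122, 119 and 121 TPM in untreated and 78.6, 41.5 and 59.1 TPM in treated H82. Its untreated libraries were nearly equal and all above the treated ones. The log2 fold change was -1.05 (SE 0.23, limma adjusted *p* = 0.00684), and under the median of ratios the call was lost (-0.56, limma adjusted *p* = 0.088). *SNHG15*, the host of SNORA9, was at 81.3, 76.0 and 83.5 TPM without and 71.2, 39.2 and 51.4 TPM with treatment. Its groups came close to each other, and its call (-0.61, SE 0.22, limma adjusted *p* = 0.0487) was lost under the median of ratios (-0.12, adjusted *p* = 0.686) and without treated replicate 2 (-0.40, adjusted *p* = 0.131). *SNHG16* had no overlap either, at 64.8 ± 3.64 and 46.7 ± 11.01 TPM over 3 libraries each (SD), but its difference of -0.49 on the log2 scale missed the threshold (limma adjusted *p* = 0.0563). In all, 7 of the 19 genes had groups that did not overlap, each of them lower with treatment, against 67.8% of all tested genes in either direction, 51.4% lower and 16.4% higher.

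Treated replicate 1 of H82 lay on the other side of the untreated range from the other treated libraries for 6 host genes. *GAS5* (ENSG00000234741.10, chromosome 1, 173858559 to 173868882), named for its rise in growth arrest and known as the host of several C/D box snoRNAs, was at 433.0, 447 and 434 TPM in untreated H82, and at 1705, 246 and 230.4 TPM in treated replicates 1, 2 and 3. The untreated libraries agree closely, replicate 1 is 3.89 times their mean, and the other treated libraries are 0.544 times it. Its fitted log2 fold change was 0.07 (SE 0.73, limma adjusted *p* = 0.943) with all libraries and -0.88 (adjusted *p* = 0.000204) without replicate 1. *SNHG1*, the host of the U22 snoRNA and neighbors, showed the same split, with 133.5, 146.3 and 137 TPM untreated and 313, 53.7 and 59.4 TPM treated. Its log2 fold change went from -0.47 (SE 0.63, adjusted *p* = 0.550) to -1.28 (adjusted *p* = 0.000142) without that library. *EPB41L4A-AS1*, the host of SNORA13, was at 36.1, 32.2 and 35.5 TPM untreated and 148, 24.1 and 17.0 TPM treated, and *ZFAS1*, the host of the SNORD12 family, at 38.7, 35.2 and 45.4 TPM untreated and 61.5, 15.8 and 16.1 TPM treated. For both, treated replicate 1 was above and the other treated libraries below every untreated one. Without it their log2 fold changes were -0.74 (adjusted *p* = 0.00669) and -1.26 (adjusted *p* = 0.000442), against 0.19 and -0.63 with it, neither past the threshold.

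*SNHG8*, the host of SNORA24, was at 142, 135 and 145.7 TPM in untreated and 670.5, 124.5 and 117 TPM in treated H82. *SNHG7*, the host of SNORA17A and SNORA17B, was at 71.9, 61.8 and 81.2 TPM untreated and 317, 77.2 and 91.4 TPM treated. *SNHG5*, the host of the U50 snoRNAs, was at 76.6, 71.1 and 80.1 TPM untreated and 106, 45.2 and 44.4 TPM treated. Treated replicate 1 was the highest H82 library for all of these, and the other treated libraries lay below the untreated range for *SNHG8* and *SNHG5* but not for *SNHG7*. *SNHG6* (406, 216 and 153 TPM treated against 201, 151 and 183 untreated) and *SNHG10* (20.3, 13.1 and 13.9 against 14.8, 13.7 and 14.8) also had their highest value there, and *SNHG12*, at 33.8, 29.3 and 33.9 TPM untreated and 30.1, 10.8 and 19.6 treated, had its highest treated value there. None of these 6 was past the threshold with all libraries. Without treated replicate 1, *SNHG5* (-0.75, limma adjusted *p* = 0.000549), *SNHG8* (-0.22, adjusted *p* = 0.0317) and *SNHG12* (-1.09, adjusted *p* = 0.00734) were lower, and *SNHG6*, *SNHG7* and *SNHG10* were still not called. With the median of ratios applied as well, *SNHG8* was higher (0.26, adjusted *p* = 0.0273) and *SNHG12* lost its call (-0.63, adjusted *p* = 0.0522). *SNHG9* and *SNHG11*, both low, were at 3.66 to 4.68 and 10.8 to 14.5 TPM in group means.

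Over the 19 genes, treated replicate 1 held at least 2 times the highest other treated library for 8, against 15.5% of all tested genes. It was above every untreated library while both other treated libraries were below every untreated one for 6 (*GAS5*, *SNHG1*, *EPB41L4A-AS1*, *ZFAS1*, *SNHG5* and *SNHG8*), against 2.73% of all tested genes. Both other treated libraries were below the untreated range for 14, against 57.2% of all tested genes. *MALAT1*, *SNHG4*, *SNHG14* and *SNHG3* were not split in this way: they were below the untreated range in all 3 treated libraries. Without treated replicate 1, 14 of the 19 genes were lower and 0 higher in H82, with 52.2% and 18.4% of all genes called, and the median of the 19 was -0.82. The 6 genes called with all libraries were among the 14. Without treated replicate 2 instead, 5 were lower and 0 higher (42.6% and 9.03% of all genes). With all libraries, the median of ratios gave 4 lower and 1 higher (32.9% and 24.2%), and 5 were lower and 3 higher with quantile normalization (24.6% and 26.6%). With that library left out and the median of ratios applied, a combination added after the values were seen, 10 were lower and 4 were higher (*SNHG7*, *SNHG8*, *SNHG10* and *SNHG11*), with 38.6% and 31.2% of all genes called.

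Treated replicate 1 differed in related genes as well. The summed TPM of 14 nonsense-mediated decay genes was 869 there, against 1364 and 1436 in the other treated libraries and 1192 to 1214 in untreated H82. The 8 core snoRNP protein genes summed to 2509 TPM there, against 3526 and 3557 TPM with treatment and 2356 to 2689 TPM without. The sum of 15 protein-coding snoRNA hosts was higher there, at 13256 TPM against 10850 and 11029 TPM. It rested largely on *EEF2*, at 6966 TPM against 3686 and 3552 TPM. Other genes of the list went either way, with *EEF1B2* at 1202 against 990 and 872 TPM and *HSPA8* at 375 against 1803 and 1998 TPM. The part of these differences in the host gene values was not tested.

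**Figure D2:**
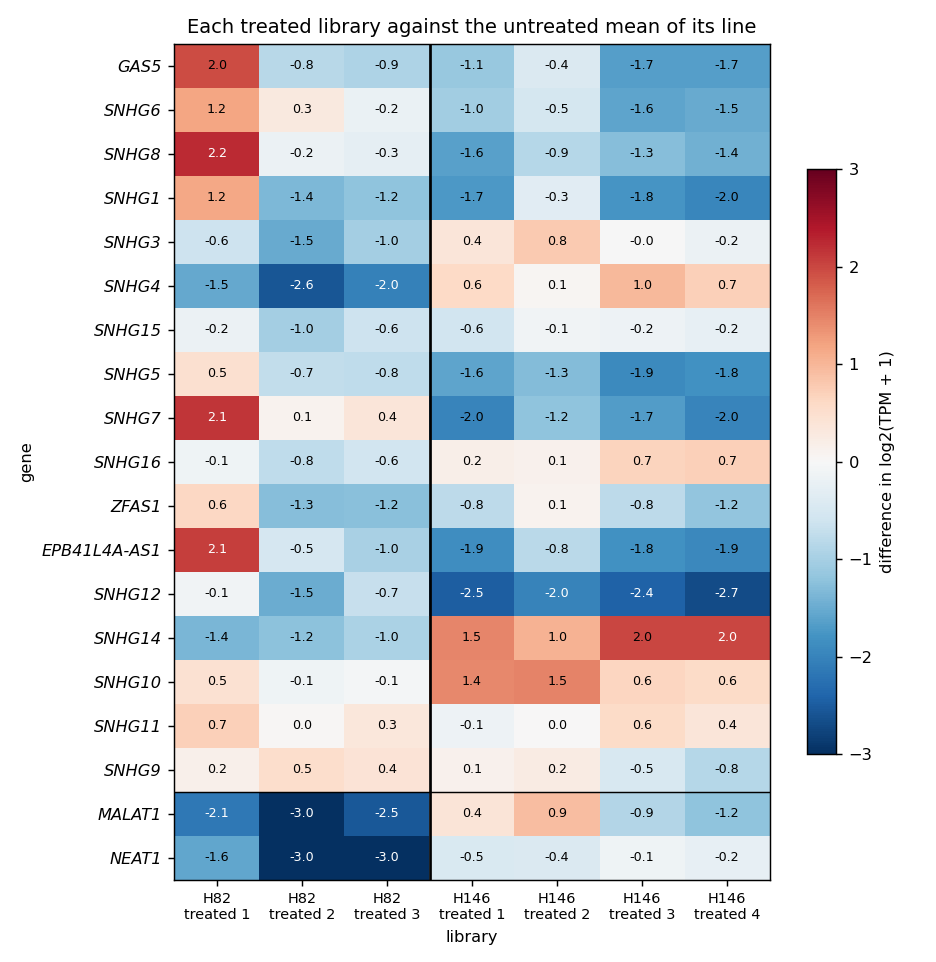
Difference in log2(TPM + 1) between each treated library (columns) and the untreated mean of its line (rows are genes, red is higher and blue lower, printed to 1 decimal). The first column, treated replicate 1 of H82, is red for GAS5 (1.96), SNHG8 (2.25), SNHG7 (2.14) and EPB41L4A-AS1 (2.07), where the other H82 columns are pale or blue, and in H146 SNHG12 is blue in all 4 libraries.

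In H146, 8 host genes (*SNHG12*, *SNHG7*, *SNHG5*, *EPB41L4A-AS1*, *SNHG1*, *SNHG8*, *GAS5* and *SNHG6*) were lower with FHD-286 and 2 (*SNHG14* and *SNHG10*) were higher, of 18 tested, and *MALAT1* was not called. Of all 19585 tested genes 15.5% were lower and 32.5% higher, so most calls among these genes were lower and most among all genes higher. The 18 had a median log2 fold change of -0.46, and all genes one of 0.25. The same 8 were lower under the median of ratios, with quantile normalization, and without treated replicate 2. The median of ratios gave 10 lower and 1 higher (25.1% and 21.3% of all genes), and 9 were lower and 1 higher with quantile normalization (20.8% and 23.7%). The summed TPM of the 17 host genes was 2773 to 3645 in untreated and 1089 to 2107 in treated H146.

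*SNHG12* (ENSG00000197989.15, chromosome 1, 28578538 to 28583132), the host of SNORD99 and several H/ACA snoRNAs, fell most. It was at 122, 97.4 and 145 TPM in untreated and 20.9, 29.2, 21.4 and 17.7 TPM in treated H146, and the lowest untreated library was more than 3 times the highest treated one. Its log2 fold change was -2.40 (SE 0.19, limma adjusted *p* = 6.2e-05), or 2.65 below the median of all genes. *SNHG5* was at 365, 363 and 453 TPM without and 131, 158.5, 104 and 111 TPM with the drug. The groups were well apart, with a log2 fold change of -1.64 (SE 0.17, limma adjusted *p* = 0.000180). *SNHG7* was at 104, 97.2 and 158 TPM untreated and 28.8, 50.2, 36.1 and 28.8 TPM treated, and fell by 1.71 on the log2 scale (SE 0.24, limma adjusted *p* = 0.000788).

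*SNHG6*, the most abundant of the 19 in untreated H146 and the host of SNORD87, was at 925, 927 and 1204 TPM untreated and 491, 704, 339 and 352 TPM treated. *GAS5* was at 570.3, 502 and 648 TPM untreated and 261, 424, 180.1 and 179 TPM treated. *SNHG1* was at 407, 311 and 386 TPM untreated and 111, 289, 106 and 92.8 TPM treated. Their groups did not overlap, and treated replicate 2 was the highest treated library for each of them. Their log2 fold changes were -1.16 (SE 0.26, limma adjusted *p* = 0.00666), -1.22 (SE 0.29, adjusted *p* = 0.00927) and -1.45 (SE 0.36, adjusted *p* = 0.0111). *EPB41L4A-AS1* was at 190.1, 162.5 and 241 TPM untreated and 53.0, 110.3, 55.0 and 50.3 TPM treated, and *SNHG8* at 152.5, 121 and 198 TPM untreated and 48.8, 84.7, 62.9 and 56.4 TPM treated. They fell by 1.61 (SE 0.28, limma adjusted *p* = 0.00221) and 1.30 (SE 0.22, adjusted *p* = 0.00195) on the log2 scale. Treated replicate 2 was the highest treated library for 14 of the 19 genes, against 30.6% of all tested genes. Without it 9 genes were lower, as *ZFAS1* joined the 8, and 4 were higher (19.6% and 39.3% of all genes), and the median of the genes was -0.74.

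*SNHG14* rose in H146. It was at 1.40, 1.71 and 1.06 TPM in untreated and 5.55, 3.89, 8.51 and 8.59 TPM in treated libraries, with no overlap and a rise of 1.63 on the log2 scale (SE 0.27, limma adjusted *p* = 0.00171) that kept its call under the median of ratios (1.40). *SNHG10*, the host of SCARNA13, was at 13.2, 16.9 and 16.5 TPM without and 43.7, 44.7, 24.7 and 23.3 TPM with treatment. All treated libraries were higher, with replicates 1 and 2 well above 3 and 4, and the rise of 1.03 (SE 0.26, limma adjusted *p* = 0.0115) lost its call under the median of ratios (0.73, adjusted *p* = 0.0685) and with quantile normalization (0.82, adjusted *p* = 0.0528).

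The remaining genes of H146 were not past the threshold with all libraries. *MALAT1* was at 360.1, 352 and 509.5 TPM in untreated and 527.5, 763, 217 and 172 TPM in treated H146. Replicates 1 and 2 were above and replicates 3 and 4 below every untreated library, so the treated group spanned the untreated one, and the log2 fold change of -0.20 (SE 0.49, limma adjusted *p* = 0.761) describes neither pair. Of the genes for proteins of the speckles and paraspeckles, 0 of 6 speckle genes were lower and 2 higher, with *SON* at 0.99, and 0 of 9 paraspeckle genes were lower and 4 higher, led by *RBM14* at 1.15, while 2 speckle genes were lower under the median of ratios. Of all genes tested in H146, 15.5% were lower and 32.5% higher. Treated replicates 1 and 2 were both above 3 and 4 for 9 of the 19 genes, against 26.7% of all tested genes. The same libraries differed in the RNA genes without a poly(A) tail, which summed to 2359, 1835, 669 and 496 TPM in treated replicates 1 to 4 and 2846 to 5141 TPM untreated, and the part of this in the values above was not tested. *NEAT1* was below the filter on low values, at 1.05, 1.13 and 0.859 TPM untreated and 0.468, 0.486, 0.8292 and 0.699 TPM treated, without overlap. A two-sided exact permutation test on the log2 scale gave *p* = 0.0571, the smallest value this test can give with these libraries. *ZFAS1* was at -0.66 on the log2 scale (limma adjusted *p* = 0.0715), past the threshold under the median of ratios (-0.97, adjusted *p* = 0.0263). *SNHG15* (-0.26, adjusted *p* = 0.198) was lower under that scaling too (-0.58, adjusted *p* = 0.0245). *SNHG16* (0.42, adjusted *p* = 0.0738) and *SNHG4* (0.58, adjusted *p* = 0.0885) were higher without treated replicate 2 (adjusted *p* = 0.0206 and 0.0132). *SNHG3*, *SNHG9* and *SNHG11* had log2 fold changes of 0.25, -0.23 and 0.20, and under the median of ratios *SNHG3* (-0.064) and *SNHG11* (-0.10) turned. Groups did not overlap for 11 of the 18 tested genes and for *NEAT1*, 9 of these 12 lower and 3 higher, against 52.9% of all tested genes in either direction, 17.3% lower and 35.7% higher.

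**Figure D3:**
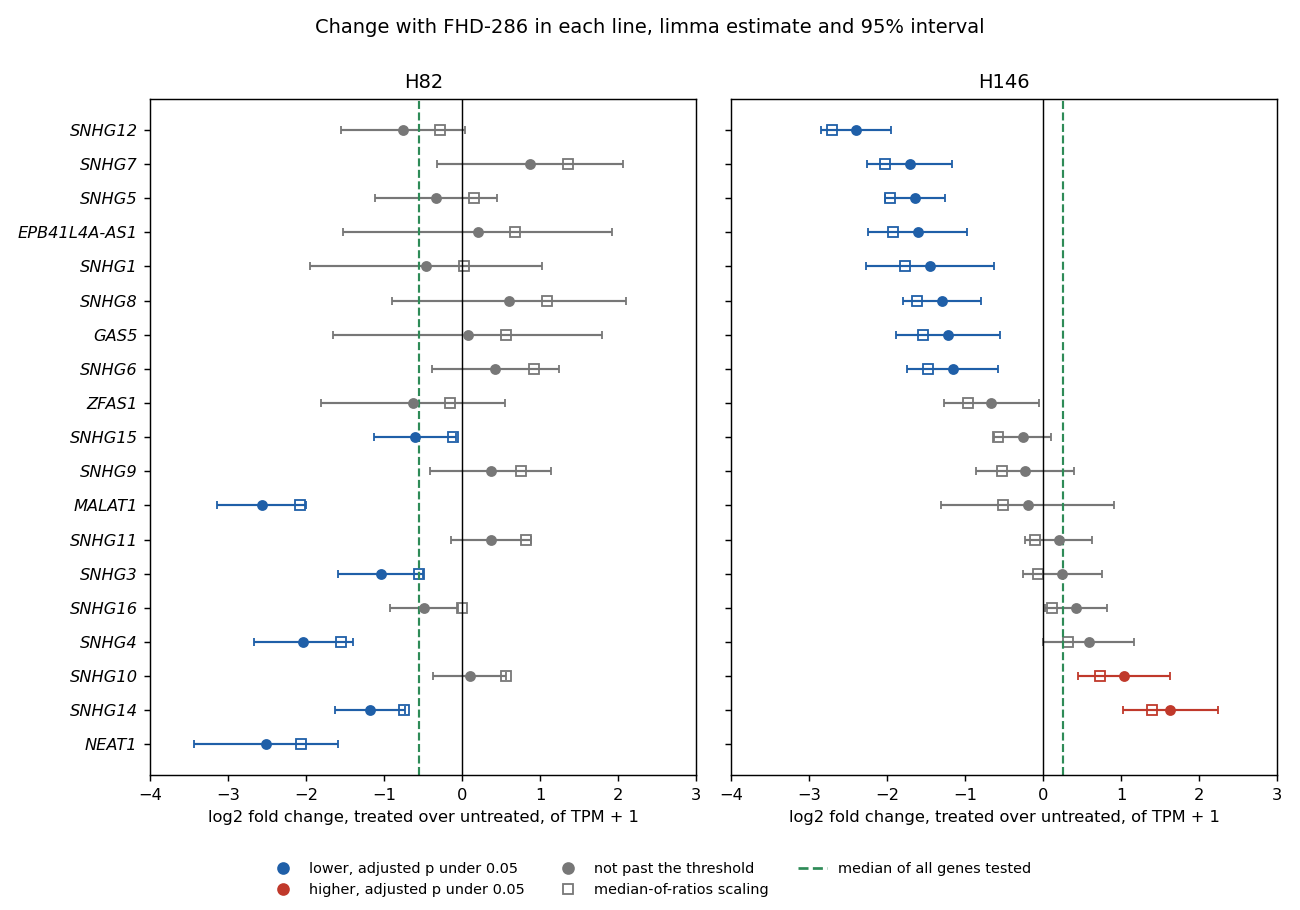
Log2 fold change of TPM + 1 with FHD-286 in H82 (left) and H146 (right), as the limma estimate with its 95% interval, in the order of H146. Blue and red mark genes lower and higher at an adjusted p under 0.05, grey the others, open squares the median-of-ratios value in the color of the main call, and the dashed line the median of all genes tested (-0.56 and 0.25). The 8 genes that are blue in H146 are grey in H82, and SNHG14 is blue in H82 (-1.18) and red in H146 (1.63).

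The interaction of line and treatment was past the threshold for 11 of the 18 genes tested in both lines, and for 58.6% of the 15679 genes tested in both, so the share among these genes lay near that of all genes. The change in H146 was above that in H82 for 6 of the 11 (45.2% of all such genes) and below it for 5 (13.4%). *NEAT1* entered this fit through H82 alone and was under the filter in H146, so its term of 2.20 is given as a description. *SNHG14* had the highest term, 2.81 (SE 0.35, limma adjusted *p* = 3.1e-05), and was the only 1 of the 19 called in both lines, with opposite signs. *SNHG4* followed with 2.62 (SE 0.39, adjusted *p* = 0.000118), then *MALAT1* with 2.37 (SE 0.63, adjusted *p* = 0.00602) and *SNHG3* with 1.29 (SE 0.34, adjusted *p* = 0.00566). *SNHG16* (0.91) and *SNHG10* (0.94) completed this direction. *SNHG7* had the lowest term, -2.58 (SE 0.58, adjusted *p* = 0.00224), and *SNHG8* (-1.90), *SNHG12* (-1.64), *SNHG6* (-1.59) and *SNHG5* (-1.30) were the others with a lower change in H146. In H82 none of these 5 was called, and the values of *SNHG7*, *SNHG8* and *SNHG6* there were above 0.

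*GAS5* and *SNHG1*, called in H146 and not in H82, had interaction terms of -1.29 (SE 0.82, adjusted *p* = 0.193) and -0.98 (SE 0.78, adjusted *p* = 0.291), so with all libraries a difference between the lines was not shown for them. Without treated replicate 1 of H82 these terms were -0.34 and -0.17. Under the median of ratios they were -2.10 and -1.79 (limma adjusted *p* = 0.0560 and 0.0807). With both choices together they were -1.14 (adjusted *p* = 0.0443) and -0.96 (adjusted *p* = 0.138), so the result for *GAS5* depends on the scaling. Counting *NEAT1*, 12 genes were called with all libraries (60.2% of all 23676 genes in the fit) and the same 12 without that library (62.4%). Under the median of ratios 11 were called (57.5% of all genes), 8 of them among the 12, and *MALAT1*, *SNHG3*, *SNHG10* and *SNHG16* were not called.

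The snoRNA genes inside the hosts gave a second readout. In the GENCODE 44 annotation 115 snoRNA genes lie within 16 of the 19 genes on the same strand, and those of *GAS5* were not analysed here. 114 had a row, 82 of these were listed at 0 in every library, and 32 were above 0 somewhere, 22 of them within *SNHG14*. Mature snoRNAs are short and have no poly(A) tail, how much of them the libraries kept is not given in the sources used here, and a snoRNA gene can share reads with the intron of its host. In H82 20 were tested, with 13 lower and 0 higher, where 45.5% and 13.1% of all genes were called. Of these 13, 8 reached 1 TPM in at most 1 treated library, so they passed the filter through the untreated group and hardly anything but a fall could be called, and the count is given as a description. In H146 20 were tested, with 0 lower and 9 higher, where 15.5% and 32.5% of all genes were called, and 4 of the 9 reached 1 TPM in at most 2 untreated libraries. Within *SNHG14*, 8 of 11 were lower in H82 and 4 of 12 were higher in H146. All of these but SNORD116-6 reached 1 TPM in at most 1 treated library of H82 or at most 2 untreated libraries of H146. They passed the filter through the group where they are high, so these counts and the 9 of H146 are a description too. The 30 SNORD116 rows summed to 78.0, 99.4 and 121.5 TPM in untreated H82 and 3.80, 8.78 and 25.7 TPM in treated H82. In H146 they summed to 14.4, 14.5 and 10.3 TPM untreated and 37.2, 29.5, 98.9 and 83.0 TPM treated.

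Outside *SNHG14*, host and snoRNA gene did not always move together. *SNORA73B* in *SNHG3* was at 85.5, 76.3 and 75.3 TPM in untreated and 15.2, 20.4 and 22.5 TPM in treated H82, a fall of 1.99 on the log2 scale (SE 0.17, limma adjusted *p* = 0.000242) in the direction of its host. *SNORD99* in *SNHG12* was at 6.52, 12.96 and 9.44 TPM in untreated and 19.3, 44.6, 14.5 and 14.9 TPM in treated H146. It rose by 1.08 (SE 0.39, limma adjusted *p* = 0.0470) where its host fell by 2.40, although its call was lost under the median of ratios (0.79, adjusted *p* = 0.152). *SNORD12B* in *ZFAS1* was at 4.24, 6.33 and 2.88 TPM in untreated and 14.5, 21.1, 15.3 and 12.1 TPM in treated H146. Its rise of 1.63 (SE 0.25, limma adjusted *p* = 0.00135) held under the median of ratios (1.36, adjusted *p* = 0.00347), while *ZFAS1* itself was at -0.66. In H82 *SNORD12B* and *SNORD12C* were lower (-3.10 and -2.21), and both were under the untreated range in treated replicate 1 too (1.31 and 2.69 TPM), the library in which *ZFAS1* was highest.

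**Figure D4:**
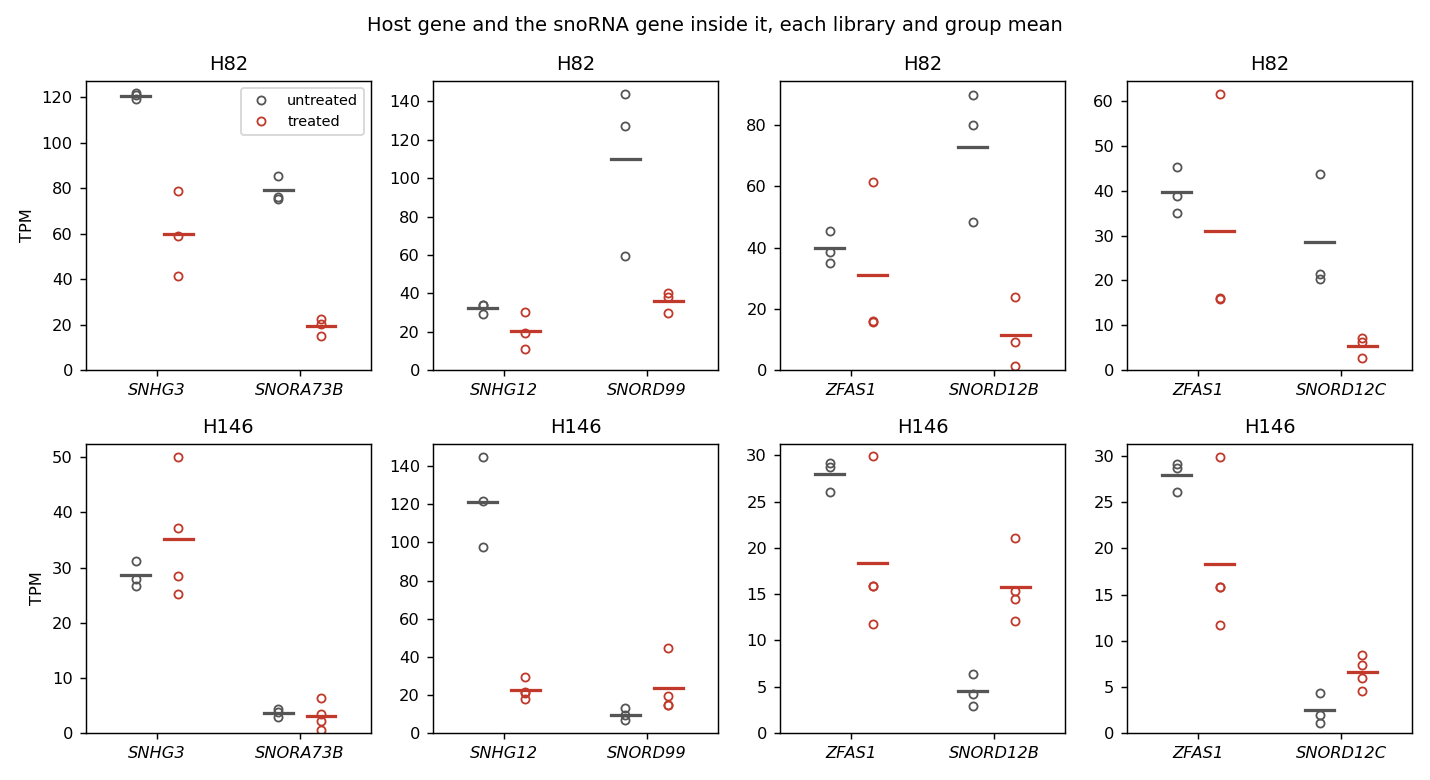
TPM of a host gene and of a snoRNA gene inside it, in H82 (top) and H146 (bottom), for the 4 snoRNA genes outside SNHG14 that reached the highest levels, a choice made after their values were seen. Circles are libraries and bars group means on linear axes from 0. In H146 SNORD99 and SNORD12B are higher with treatment (means of 23.3 and 15.7 TPM against 9.64 and 4.48) while their hosts SNHG12 and ZFAS1 have lower means.

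Protein-coding genes that start within 2000 bases of a host gene on the other strand were found for 5 of the 19. *SLC3A2*, the heavy chain of the CD98 amino acid transporter, starts 51 bases from *SNHG1*. It was at 1399, 1310 and 1766 TPM in untreated and 223, 482.5, 272 and 253 TPM in treated H146, a fall of 2.33 on the log2 scale (SE 0.26, limma adjusted *p* = 0.000266) beside that of *SNHG1* by 1.45. In H82 it was at 167, 142 and 162 TPM without and 306.5, 243 and 227 TPM with the drug. It was higher in all 3 treated libraries (0.71, SE 0.17, limma adjusted *p* = 0.00916), whereas *SNHG1* was higher in treated replicate 1 alone. *ZBTB37*, a zinc finger gene facing *GAS5*, fell by 2.04 in H82 (limma adjusted *p* = 0.000296), from 11.02 ± 1.87 to 1.90 ± 0.118 TPM over 3 libraries each (SD), with no high value in treated replicate 1 (1.82 TPM). In H146 it was at 5.07 ± 1.13 TPM over 3 untreated and 8.30 ± 3.28 TPM over 4 treated libraries (SD), without overlap but not past the threshold (0.57, limma adjusted *p* = 0.111). *ZNFX1*, facing *ZFAS1*, fell by 1.10 in H82 (limma adjusted *p* = 0.00313) and rose by 1.37 in H146 (limma adjusted *p* = 0.00223). *GLRX5*, facing *SNHG10*, rose by 1.07 in H82 (limma adjusted *p* = 0.0149) and had 0.26 in H146. *RPS2*, facing *SNHG9*, had 0.66 and -0.18, not past the threshold in either line. Counting by strand is not stated, so reads could be shared where these pairs overlap.

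Genes of the machinery that makes snoRNPs or degrades host transcripts were called in both directions. The counts below stand against 45.5% of all genes lower and 13.1% higher in H82, and 15.5% and 32.5% in H146. Under the median of ratios these shares were 32.9% and 24.2% in H82, and 25.1% and 21.3% in H146. Of 8 genes for core snoRNP proteins 0 were lower and 3 higher in H82, led by *SNU13*, a C/D box binding protein (1.03, limma adjusted *p* = 0.00222), and 0 were lower and 1 higher in H146, *DKC1*, the pseudouridine synthase (0.67, limma adjusted *p* = 0.0130). Their median was 0.32 in H82 and 0.28 in H146, and under the median of ratios 6 were higher in H82 and 0 in H146. Of 11 snoRNP assembly factors tested, 2 were lower and 3 higher in H82, led by *NAF1* (-0.64) and *RUVBL1* (1.19), and 1 was lower and 3 higher in H146, led by *PIH1D1* (-0.42) and *NAF1* (1.06). The median of ratios gave 0 lower and 5 higher in H82, where *NAF1* lost its call (-0.17, limma adjusted *p* = 0.344), and 2 lower and 1 higher in H146. Of 14 nonsense-mediated decay genes, 4 were lower and 2 higher in H82 and 2 lower and 4 higher in H146, and both counts turned under the median of ratios (1 and 4 in H82, 4 and 2 in H146). *SMG1*, the kinase that phosphorylates UPF1, was at 35.1, 38.3 and 33.5 TPM in untreated and 5.36, 7.69 and 9.74 TPM in treated H82. That fall of 2.12 (SE 0.22, limma adjusted *p* = 0.000369) was the largest of the list. In the same list *EIF4A3*, a core protein of the exon junction complex, rose by 1.06 in H82, and in H146 *UPF1* fell by 0.49 and *RBM8A* rose by 1.02. Of 15 protein-coding hosts of snoRNAs, 3 were lower and 1 higher in H82 (7 higher under the median of ratios) and 4 lower and 1 higher in H146, with medians of 0.12 and 0.02. *EIF4A1* fell most of them in H82, by 2.38 (limma adjusted *p* = 0.000358), with no high value in treated replicate 1 (3.24 TPM). Its call held under the median of ratios (-1.96). The gene higher in H82 was *EEF1B2* (0.74, limma adjusted *p* = 0.0128), not called with quantile normalization (adjusted *p* = 0.228). *TAF1D*, a multi-snoRNA host whose spliced RNA is subject to decay, was at 142.5, 119 and 141 TPM in untreated and 76.2, 133, 53.3 and 50.7 TPM in treated H146. It fell by 0.88 (limma adjusted *p* = 0.0439) with treated replicate 2 inside the untreated range, and in H82 it was at 71.4, 83.2 and 72.7 TPM untreated and 68.4, 22.2 and 24.9 TPM treated (-1.14, limma adjusted *p* = 0.0433). The H82 call of *TAF1D* was lost under the median of ratios (-0.66, adjusted *p* = 0.225), with quantile normalization (adjusted *p* = 0.0896) and without treated replicate 2 (adjusted *p* = 0.122), and its H146 call with quantile normalization (adjusted *p* = 0.0555). Without treated replicate 1 of H82 it was at -1.64 (limma adjusted *p* = 0.000142), and without treated replicate 2 of H146 at -1.17 (limma adjusted *p* = 0.00061).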

How the data were processed

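RNA-seq libraries of H82 and H146 were analysed from the deposited TPM values. The authors aligned to hg38 with STAR, which also made the gene counts over GENCODE release 28, and the submitters' processing notes also name Trim Galore 0.4.4 and DESeq2. The gene lengths behind the TPM values and the strand setting of the counting are not given in the sources used here. The tables hold no read counts, so depth is unknown.

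A gene was tested in a line where 3 or more libraries reached 1 TPM, in R 4.3.3 with limma 3.58.1 (lmFit, eBayes with trend) on log2(TPM + 1), a scale that understates changes of low genes. The threshold was an adjusted *p* of 0.05 (Benjamini-Hochberg over all genes tested, two-sided). 1 fit over all 13 libraries tested the interaction. Nothing states that libraries came from separate cultures, so *p* values measure the spread between these libraries, which may be technical. Gene lists are described by counts and medians without a set test. The genes and lists were chosen with earlier results of these data known. Named in full were the genes chosen by name and SNHG genes with a mean of at least 20 TPM in any group. The largest changes per line and the extremes of the interaction were named too. So were the extremes of the snoRNP, decay, snoRNA host, speckle and paraspeckle lists. Markers and RNA genes without a poly(A) tail are given mostly as sums and counts. Coordinates are from GENCODE release 44, start sequences from RefSeq. On simulated data the fit recovered 27% and 65% of log2 changes of 1 and 2 with the H82 design (19770 genes) and 51% and 84% with the H146 design (19585 genes), with 3 and 11 unchanged genes called. Only 100 genes were changed by each size there, with noise drawn independently for each gene and library. In H82 45.5% of all genes were called lower and 13.1% higher, so these rates do not give the sensitivity or false calls of the fits here. Alternatives were a pseudocount of 0.1, no filter, a mean TPM above 2, the replicate number as a block, quantile normalization, median-of-ratios scaling, and each library left out. Tables and plots were made with matplotlib 3.10.9, scipy 1.17.1, pandas 2.3.3 and numpy 2.4.6 under Python 3.11.15.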

Additional observations from a re-analysis of the deposited data

Results flagged for a closer look

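In the 4 treated libraries of H146, treated replicate 2 lay apart from the other 3 for *EPB41L4A-AS1*, at 110.3 TPM, and for *SNHG1*, at 289 TPM, by Dixon's criterion at the 95% level. The criterion was applied to 17 genes in that group, and chance marks about 1 in 20 such groups.

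The change in H146 differed from that in H82 by the interaction test for 11 of the 18 genes tested in both lines, close to the 58.6% of all genes tested in both, so the number is no result about these genes. The differences (H146 minus H82, on the log2 scale) were 2.81 for *SNHG14*, 2.62 for *SNHG4*, 2.37 for *MALAT1*, 1.29 for *SNHG3*, 0.94 for *SNHG10* and 0.91 for *SNHG16*. They were -2.58 for *SNHG7*, -1.90 for *SNHG8*, -1.64 for *SNHG12*, -1.59 for *SNHG6* and -1.30 for *SNHG5*.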

How the results depend on the processing

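In H82 the number of genes lower was 14 without treated replicate 1 (52.2% of all genes) and 10 when the median of ratios was also applied (38.6%). It was 4 to 6 with all libraries, where the share of all genes was 45.5% in the main fit, 32.9% under the median of ratios and 24.6% with quantile normalization. The number higher in H82 was 1 under the median of ratios (*SNHG11*, chosen after its value was seen, with 24.2% of all genes higher). It was 3 with quantile normalization (26.6%) and 4 under the median of ratios without treated replicate 1 (31.2%). With single libraries left out, 5 to 14 genes were lower and 0 higher in H82. For most fits with a library left out the share of all genes was not counted, so these ranges are a description. In H146 the number higher was 1 under the median of ratios (21.3% of all genes) and 1 with quantile normalization (23.7%). It was 2 to 4 with single libraries left out, with 4 reached without treated replicate 2 (39.3%). The number lower in H146 stayed between 8 and 10, with 15.5% of all genes lower in the main fit and 25.1% under the median of ratios. The interaction called 10 to 12 genes, *NEAT1* counted, with 60.2% of all genes called in the main fit. The median of the 19 genes in H82 turned from -0.47 to 0.022 under the median of ratios, while that of all genes went from -0.56 to -0.14. In H146 it was -0.77 under that scaling.

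The direction turned for these values, and the cause was not tested. In H82 *GAS5* was at -0.47 with quantile normalization and at -0.40 without treated replicate 1 under the median of ratios, against 0.07, and ranged from -0.88 to 0.57 with single libraries left out. Over the same libraries *EPB41L4A-AS1* ranged from -0.74 to 0.78 (-0.28 without treated replicate 1 under the median of ratios), *SNHG8* from -0.22 to 1.04 and *SNHG10* from -0.090 to 0.21, each lowest without treated replicate 1. Under the median of ratios *SNHG1* was at 0.022 and *SNHG5* at 0.15 in H82, *SNHG3* at -0.064 and *SNHG11* at -0.10 in H146, and the interaction of *SNHG15* at -0.46 (-0.23 without treated replicate 1 of H82). *MALAT1* in H146 ranged from -0.57 to 0.15 and the interaction of *ZFAS1* from -0.35 to 0.60 with single libraries left out.

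Replicate numbers did not pair the samples, since the correlation of the deviations of same-numbered libraries lay between -0.038 and 0.027 for H82 and between -0.11 and 0.011 for H146. With the replicate number as a block, 5 genes were lower and 0 higher in H82 (*SNHG15* lost its call), 8 lower and 2 higher in H146, and 12 were called by the interaction. The share of all genes was not counted for the block, so these counts are a description. *MALAT1* in H146 was at 0.15 and the interaction of *ZFAS1* at 0.14 with the block, where treated replicate 4 of H146 has no partner.

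No read depth is known, so a gene at low TPM such as *NEAT1* in H146 or *SNHG9* in H82 has a precision set only by 3 or 4 libraries.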
